A study of Rattus norvegicus with 15 samples.

Results

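The astrocyte markers described here are 9 genes, Gfap, Fabp7, Aqp4, Slc1a2, Slc1a3, Gja1, S100b, Glul and Sparcl1. They were chosen as every probe set of the array whose platform gene symbol is one of these names, which gave 18 of the 15923 probe sets and 9 of the 10411 genes with a probe set of their own. Each of the 9 genes had at least 1 probe set, and all 18 probe sets passed the filter on low signal. Their levels were followed on arrays of the posterior cerebral artery, a vessel on the brain surface, and set against the level of neuronal genes on the same arrays.

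RNA came from the posterior cerebral artery of the operated side of Sprague Dawley rats aged 7 weeks, and each of the 15 Affymetrix Rat230A arrays held RNA pooled from 8 rats. Intact rats had no surgery (3 arrays, time 0). Their arrays carry the last array numbers in the sample titles, 13 to 15. Differences from intact thus cannot be fully told apart from the order of the arrays. In the 3VO groups both vertebral arteries were closed by electrocoagulation and the left common carotid artery was ligated in the same session, and the vessel was taken after 24 h (3 arrays) or 3 d (3 arrays). This 3-vessel occlusion lowers blood flow to the brain without ischemia, per the design text. Sham rats, with 3 arrays at 24 h and 3 at 3 d, had these vessels exposed and not closed. Operated rats received isoflurane and buprenorphine, and the vessels were filled with latex under papaverine before dissection. The design text speaks of repeated hybridisation, so the 3 pools of a group may share RNA, and the p-values rest on the spread among arrays alone. The array labelled sham 3 d replicate 1 carries a treatment text that describes the occlusion. Some correlations with the neuronal genes and the Gfap and S100b differences at 3 d are given with and without it. Correlations among the markers and with the other gene lists include it.

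Astrocytes are the glial cells that wrap brain vessels with their endfeet, take up glutamate and potassium from the space around neurons, and form the glial limiting layer at the brain surface. Gfap is their intermediate filament protein, Aqp4 is the water channel of the endfeet, Slc1a2 and Slc1a3 are their glutamate transporters, and Glul turns the glutamate taken up into glutamine. The artery itself is smooth muscle, endothelium and adventitia, which are not known for making Gfap or Slc1a2, whereas Gja1, Glul, Slc1a3 and Sparcl1 are made in further cell types as well. Injury of brain tissue is known to raise Gfap in reactive astrocytes.

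The vessel and the tissue around it were both present on the arrays. Acta2, Myh11 and Tagln, genes of contractile smooth muscle, had group mean signals of 39257 to 76685, 57685 to 92828 and 83502 to 136588. Snap25, a protein of the neuronal synapse, had group means of 20144 to 77407, and Mbp, a protein of myelin, of 133063 to 184205. Signal is the linear brightness of a probe set after the authors' scaling. It was tested between arrays for a given probe set, and probe sets were ranked by signal only to pick the brightest of each gene. The mean signal after trimming was 5000 on every array, and array medians lay between 2553 and 2938. In such bulk RNA, fewer astrocytes on the vessel and less RNA per astrocyte cannot be told apart.

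The start regions of 4 members are shown, chosen after their values were seen: Slc1a3 and Fabp7, which correlated with the neuronal genes over the arrays by r, and Gfap and S100b, which correlated with Fabp7. Each line gives the 250 bases before the start of the gene, 5′ to 3′, from RefSeq on the build GRCr8. Capitals mark matches, on either strand, of 4 motifs: TTCNNNGAA of STAT factors, TTGGC, an arm of the NFI palindrome, TGGGAA of RBPJ, the nuclear partner of Notch, and the TATA box TATAAA. These motifs do not overlap each other in the sequences shown. Gfap lies at chr10:88361662-88361911 on the minus strand, Fabp7 at chr20:37669356-37669605 on the plus strand, Slc1a3 at chr2:59557809-59558058 on the minus strand and S100b at chr20:12381082-12381331 on the minus strand.
Gfap promoter: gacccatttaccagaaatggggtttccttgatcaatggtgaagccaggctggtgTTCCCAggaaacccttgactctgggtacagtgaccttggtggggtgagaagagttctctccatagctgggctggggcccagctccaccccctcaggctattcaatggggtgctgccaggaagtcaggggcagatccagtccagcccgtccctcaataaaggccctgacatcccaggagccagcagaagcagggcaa
Fabp7 promoter: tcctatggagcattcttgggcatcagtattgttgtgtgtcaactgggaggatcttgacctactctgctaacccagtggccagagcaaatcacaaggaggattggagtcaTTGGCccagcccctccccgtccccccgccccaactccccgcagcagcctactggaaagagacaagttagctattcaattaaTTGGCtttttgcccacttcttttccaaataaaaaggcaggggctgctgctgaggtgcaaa
S100b promoter: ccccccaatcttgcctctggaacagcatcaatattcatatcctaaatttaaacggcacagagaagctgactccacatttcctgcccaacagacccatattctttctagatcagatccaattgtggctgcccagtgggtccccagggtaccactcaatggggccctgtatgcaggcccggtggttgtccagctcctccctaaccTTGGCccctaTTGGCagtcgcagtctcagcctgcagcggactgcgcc
Slc1a3 promoter: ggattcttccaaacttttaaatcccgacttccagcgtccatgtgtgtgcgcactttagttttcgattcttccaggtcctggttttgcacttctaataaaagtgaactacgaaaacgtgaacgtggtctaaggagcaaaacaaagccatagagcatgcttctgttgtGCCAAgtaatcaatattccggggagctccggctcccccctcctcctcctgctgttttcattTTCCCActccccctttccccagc

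Fabp7 and S100b each held 2 copies of TTGGC. In Fabp7 they began 141 and 60 bases before the start, and in S100b 47 and 37 bases before it. Slc1a3 held 1 copy, and in Gfap none was found while TGGGAA was found once. Aqp4, which also correlated with Fabp7 (r = 0.70) and is not shown, had no match of the 4 motifs. Of the first listed promoter of each of the 9 members, 4 held TTGGC, against 40.3% of the 27457 promoters of the same length. TGGGAA was found in 2 of 9, against 21.6%. The letters TTCNNNGAA and TATAAA were in 0 of 9 of these windows, against 7.52% and 13.1%. Gfap, a known target of STAT3, thus had no STAT letters within the 250 bases shown. The members' shares of TTGGC and TGGGAA were near those of all promoters.

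At 24 h, most astrocyte markers were higher after 3VO than after sham surgery, but no probe set of a member passed the test across all genes. After sham surgery at 24 h, 8 of the 18 probe sets lay above intact and 10 below, where 54.2% of all probe sets lay above. In 3VO against sham at 24 h, Fabp7, a fatty acid binding protein of radial glia and astrocytes, had a 2.23-fold higher signal. Its p there was the smallest of the 18 probe sets. On their brightest probe sets, Gfap, S100b and Aqp4 were between 1.37 and 1.40-fold higher. The other Aqp4 probe sets were 1.84 and 1.54-fold higher. Slc1a2 was 2.24-fold higher on its brighter probe set and 1.40-fold on the other, with limma standard errors of 0.77 and 0.33 on the log2 scale. Gja1 on its brightest probe set, the gap junction protein connexin 43, and Sparcl1, a secreted matrix protein, lay on the other side, at 0.919 and 0.798 of the sham level. Of the 18 probe sets, 14 had a difference above 0, where 47.3% of all did, and their median was 0.37 on the log2 scale, against -0.02 over all 15737 probe sets tested. Here 0 of 18 passed in limma at a Benjamini-Hochberg adjusted p under 0.05, where 0.0508% of all probe sets did, and 3 had an unadjusted p under 0.05, where 6.97% did.

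**Figure D1:**
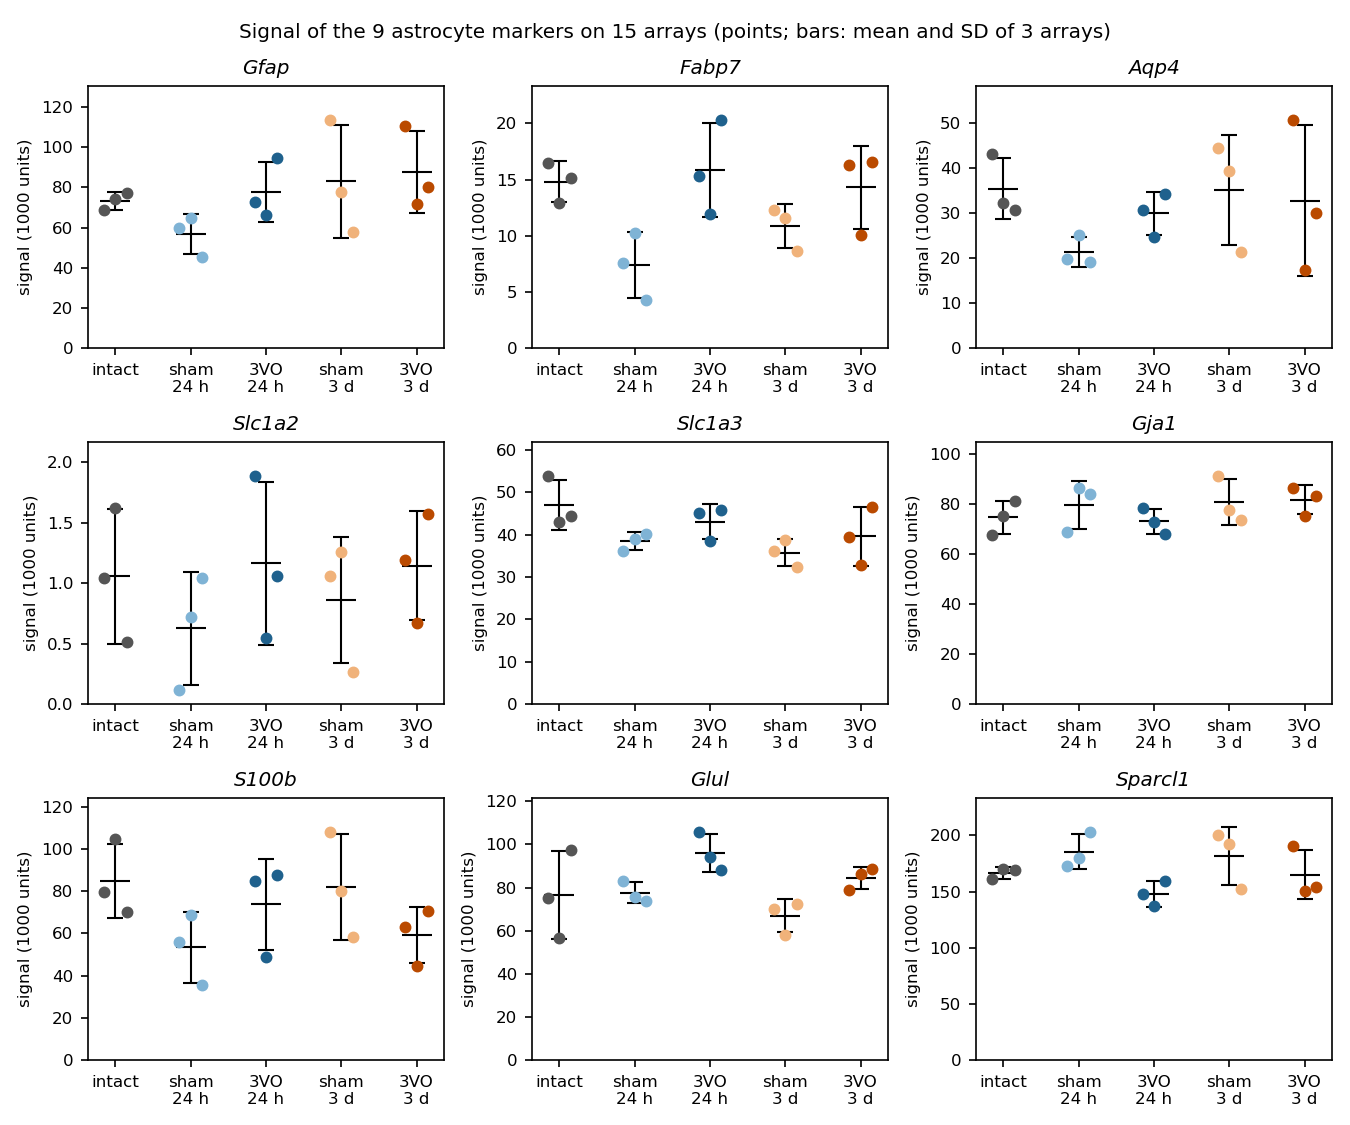
Signal, in units of 1000 on a linear axis from 0, of the probe set with the highest mean signal of each of the 9 astrocyte markers on 15 arrays in 5 groups. Points are arrays, bars are the mean and SD of 3 arrays. Fabp7 lay at 4316 to 10214 after sham surgery at 24 h and at 11928 to 20284 after 3VO.

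Gfap signal was 68582, 74067 and 77390 on the intact arrays and 59655, 64880 and 45468 after sham surgery at 24 h. After 3VO at 24 h it was 72592, 66401 and 94785. The sham arrays at 24 h were the lowest, below all intact arrays and all 3VO arrays of that time. At 3 d, Gfap was 113552, 77622 and 57825 after sham surgery and 110738, 71949 and 80371 after 3VO. Both groups spanned a wide range at 3 d and overlapped. The log2 difference between 3VO and sham was 0.46 ± 0.23 (SE, n = 3 and 3) at 24 h, with limma adjusted p = 0.752. The later value, at 3 d, was 0.11 ± 0.23, with limma adjusted p = 0.999. Gfap, the gene best known for its rise in reactive astrocytes, thus passed in none of the 6 comparisons. Its group means ran, from highest to lowest, as 3VO 3 d, sham 3 d, 3VO 24 h, intact and sham 24 h, and neighbours in this order overlapped on their arrays except intact and sham 24 h, whose log2 difference of sham minus intact was -0.39 ± 0.23 (SE) (limma adjusted p = 0.464). The highest mean was 1.55 times the lowest.

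Fabp7 gave the largest differences of the members with limma standard errors under 0.3. Its signal was 16428, 12871 and 15158 in intact arteries and 7576, 10214 and 4316 after sham surgery at 24 h. After 3VO at 24 h it was 15345, 11928 and 20284. All 3 sham arrays of 24 h lay below all intact and all 3VO arrays of 24 h. At 3 d, signals were 12299, 11585 and 8631 after sham surgery and 16333, 10059 and 16530 after 3VO, and the 3VO array at 10059 lay within the sham range. The log2 difference of 3VO minus sham at 24 h was 1.16 ± 0.28 (SE), 95% interval 0.55 to 1.76, unadjusted p = 0.00104 and limma adjusted p = 0.272. For sham at 24 h minus intact it was -1.09 ± 0.28, unadjusted p = 0.00172 and limma adjusted p = 0.135. The signal after 3VO at 24 h was close to that of intact arteries, with a log2 difference of 0.07 ± 0.28 (SE). Both comparisons with the sham arrays of 24 h share those 3 arrays.

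S100b, a calcium binding protein of astrocytes and of Schwann cells, was 79799, 104606 and 70315 in intact arteries. It was 56133, 68818 and 35379 after sham surgery at 24 h and 85024, 48813 and 87619 after 3VO at 24 h. The sham arrays lay below all intact arrays, while the 3VO arrays overlapped both. At 3 d, S100b was 108007, 79917 and 58122 after sham surgery and 63034, 44618 and 70517 after 3VO. The highest of all 15 values came from sham 3 d replicate 1, the array with the conflicting label. Among the brightest probe sets, S100b was the only one whose log2 difference between 3VO and sham differed between the times at an unadjusted p under 0.05. It was 0.47 at 24 h and -0.45 at 3 d, and the difference of these was -0.92 ± 0.42 (SE), unadjusted p = 0.0454 and limma adjusted p = 0.999. Over all 18 probe sets, 1 had such a p, where 2.78% of all probe sets did, and 0 passed after adjustment, where 0.0% did. Leaving out 1 array moved the S100b difference between the times to values from -1.19 to -0.65. Without sham 3 d replicate 1, the S100b difference between 3VO and sham at 3 d was -0.22.

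Aqp4 had 3 probe sets that ran together over the 15 arrays, with Pearson r of 0.81 to 0.85. Its brightest probe set read 43218, 32342 and 30772 in intact arteries, 19689, 25093 and 19075 after sham surgery at 24 h and 30802, 24706 and 34265 after 3VO at 24 h. The sham arrays lay below all intact arrays, and a single 3VO array, at 24706, lay within the sham range. The readings at 3 d were 44524, 39364 and 21245 after sham surgery and 50672, 17410 and 30087 after 3VO. The highest and the lowest of the 15 values were thus both from 3VO arrays at 3 d, 2.91-fold apart. The log2 difference of sham at 24 h minus intact was -0.73 ± 0.33 (SE), limma adjusted p = 0.308. For 3VO minus sham at 24 h it was 0.49 ± 0.33, 0.88 ± 0.39 and 0.62 ± 0.49 for the 3 probe sets, none with a limma adjusted p under 0.698.

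The glutamate transporters differed from each other. Slc1a3, which encodes GLAST, read 53831, 42932 and 44361 in intact arteries on its brightest probe set. After sham surgery it read 36169, 39049 and 40241 at 24 h and 36136, 38668 and 32448 at 3 d. All 6 sham arrays lay below all 3 intact arrays. After 3VO it read 45105, 38470 and 45785 at 24 h and 39447, 32754 and 46587 at 3 d, overlapping the sham arrays. The log2 difference of sham minus intact was -0.28 ± 0.14 (SE) at 24 h, limma adjusted p = 0.368, and -0.39 ± 0.14 at 3 d, limma adjusted p = 0.262. The 3 probe sets of Slc1a3 did not run alike: r with the brightest was 0.53 for 1388064_a_at and -0.39 for 1371130_at, whose sham and 3VO means at 3 d lay above its intact mean. The latter read 1743 to 2314 after 3VO at 3 d against 870 to 1428 in intact arteries, with no overlap, and a log2 difference of 0.75 ± 0.30 that did not pass (limma adjusted p = 0.314).

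Slc1a2, which encodes GLT-1, ranged from 116 to 1883 over the 15 arrays on its brighter probe set. It read 1040, 1624 and 509 in intact arteries, 116, 716 and 1043 after sham surgery at 24 h, and 1883, 544 and 1060 after 3VO at 24 h. Readings at 3 d were 1056, 1258 and 268 after sham surgery and 1193, 668 and 1573 after 3VO. Every group overlapped every other, and the lowest and highest arrays were 16.2-fold apart. The log2 difference of 3VO minus sham at 24 h was 1.16 ± 0.77 (SE), with an interval of -0.48 to 2.80. Leaving out 1 array moved it between 0.25, without sham 24 h replicate 1, and 1.75, without sham 24 h replicate 3, and it was 0.73 without 3VO 24 h replicate 1. The second probe set lay between 449 and 1006 on all 15 arrays. On it, 3VO at 24 h (880 to 1005) lay above sham at 24 h (449 to 841) and intact (584 to 826) without overlap. The log2 differences were 0.49 ± 0.33 and 0.53 ± 0.33 (SE), and neither passed (limma adjusted p = 0.825 and 0.619).

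Glul, the glutamine synthetase, had its brightest probe set higher on every 3VO array than on any sham array of the same time. Its brightest probe set read 75276, 56583 and 97582 in intact arteries, 83142, 75827 and 73888 after sham surgery at 24 h and 105667, 94000 and 88098 after 3VO at 24 h. At 3 d it read 69830, 58112 and 72478 after sham surgery and 78761, 86225 and 88434 after 3VO. The intact arrays spanned both groups. Glul was the only gene among the 9 whose brightest probe set separated 3VO from sham at both times. The log2 difference was 0.30 ± 0.17 (SE) at 24 h, limma adjusted p = 0.792, and 0.34 ± 0.17 at 3 d, limma adjusted p = 0.999. The other probe sets gave 0.16 and 0.36 at 24 h and 0.31 and 0.46 at 3 d, so all 6 estimates were above 0 and none passed. Each of these other probe sets overlapped between 3VO and sham at one of the times, 1367632_at at 24 h and 1367633_at at 3 d.

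On their brightest probe sets, Gja1 and Sparcl1 held nearly steady or ran the other way. Gja1 read 67685, 75303 and 81064 in intact arteries, 68756, 86595 and 83862 after sham surgery at 24 h and 78244, 72988 and 67950 after 3VO at 24 h. The arrays of 3 d read 91138, 77453 and 73553 after sham surgery and 86533, 75165 and 83335 after 3VO. All groups overlapped, and the highest group mean was 1.12 times the lowest, the narrowest spread of the 18 probe sets. Its other 2 probe sets, 1369639_at and 1369640_at, did not follow the brightest, with r of -0.21 and 0.13. Their highest group means were 1.55 and 1.64 times the lowest. In 3VO against sham at 24 h they lay at 0.891 and 1.14 of the sham level (limma adjusted p = 0.963 and 0.948).

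Sparcl1 read 160844, 170089 and 169111 in intact arteries, 173144, 179987 and 202855 after sham surgery at 24 h and 147383, 136697 and 159147 after 3VO at 24 h. The 3VO arrays were the lowest and the sham arrays the highest, with no overlap among these 3 groups. The later arrays, at 3 d, read 200115, 192668 and 151942 after sham surgery and 190177, 150818 and 154043 after 3VO, and the groups overlapped. The log2 difference of 3VO minus sham at 24 h was -0.33 ± 0.16 (SE), unadjusted p = 0.0615 and limma adjusted p = 0.738.

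**Figure D2:**
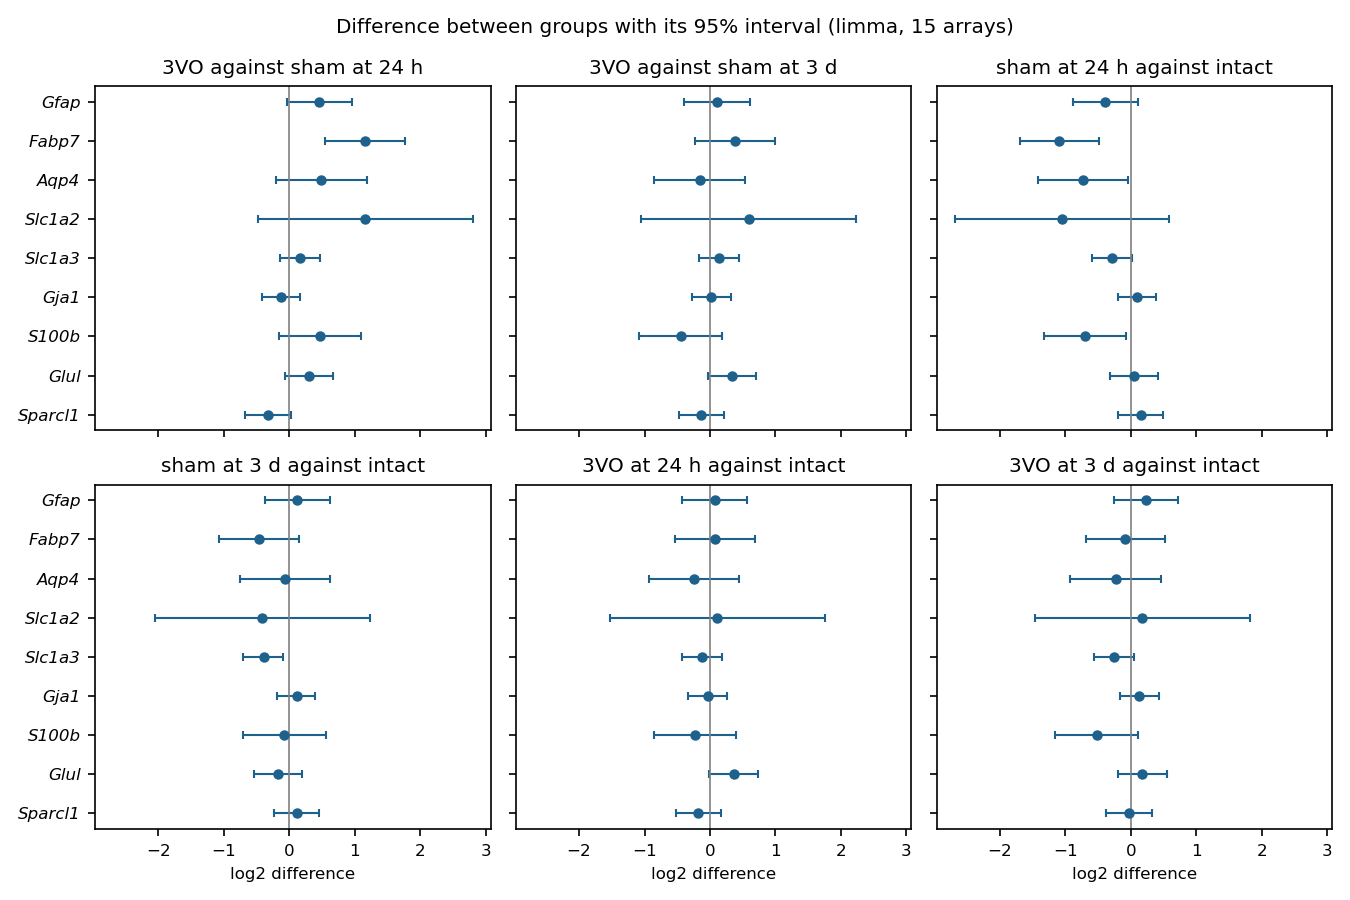
Log2 difference between the first and second named group (x axis) with its 95% interval from limma for the brightest probe set of each of the 9 genes, in 6 comparisons of 15 arrays. For Fabp7 the interval lies above 0 for 3VO against sham at 24 h and below 0 for sham at 24 h against intact, and no estimate shown passed after adjustment over 15737 probe sets.

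Counts over the 18 probe sets were as follows. In 3VO against sham at 24 h, 7 were higher on all 3VO arrays and 2 lower, where 6.42% and 9.0% of all probe sets were. In the same comparison at 3 d, 12 of 18 were above 0, where 48.5% of all were, with a median of 0.13 on the log2 scale against -0.01 over all tested. There 3 were higher without overlap and 0 lower, where 4.34% and 4.75% of all probe sets were, and 0 passed in limma, where 0.0% of all did, with 2 at an unadjusted p under 0.05, where 4.73% were.

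The comparisons with intact arteries share the 3 intact arrays. After sham surgery at 24 h, 8 of 18 probe sets lay above intact, where 54.2% of all did, and 10 below, with a median of -0.19 on the log2 scale against 0.04 over all tested. Of these, 5 were lower without overlap and 1, Sparcl1, higher, where 7.41% and 9.96% of all probe sets were. After sham surgery at 3 d, 7 lay above, where 58.8% of all did, and 11 below, with a median of -0.07 against 0.08, and 2 were lower without overlap and 0 higher, where 5.34% and 9.86% were. After 3VO, 12 of 18 lay above intact at each time, where 50.6% of all did at 24 h and 57.0% at 3 d, with medians of 0.09 and 0.18 against 0.00 and 0.07 over all tested. At 24 h, 2 were higher without overlap and 1 lower, where 7.59% and 6.19% of all were. At 3 d after 3VO, 1 was higher and 0 lower, where 10.3% and 5.11% were. In limma, 0 of 18 passed in each of the 4 comparisons, where 0.0% of all probe sets did after sham surgery at 24 h and at 3 d, 0.184% after 3VO at 24 h and 0.222% after 3VO at 3 d. At an unadjusted p under 0.05 there were 3 of the 18 after sham surgery at 24 h, where 15% of all were, and 1 at 3 d, where 14.2% were. After 3VO there were 2 at 24 h, where 9.96% were, and 1 at 3 d, where 12.9% were. A test of any difference among the 5 groups was passed by 0 of 18, where 0.0763% of all did.

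Other astrocyte genes mostly lay on the same side as Fabp7 and S100b at 24 h, and none of those differences passed. In 3VO against sham at 24 h, 25 of 33 further genes with a probe set were higher and 8 lower, and the median was 0.37 on the log2 scale. After sham surgery at 24 h, 23 of 33 lay below intact, with a median of -0.44. Aldoc, the brain aldolase, had a mean signal of 80164 in intact arteries, 29104 after sham surgery at 24 h and 49781 after 3VO. Ntsr2, a neurotensin receptor of astrocytes, had 15607, 7093 and 13856. Gjb6, connexin 30, which joins connexin 43 in astrocyte gap junctions, went against this with 50059, 74332 and 53290. The single gene of this list that passed was Atp1b2, a sodium pump subunit of astrocytes, which rose in 3VO at 3 d against intact by 1.01 on the log2 scale (limma adjusted p = 0.0349). That call held in 13 of 31 alternatives and in 6 of the 15 fits without 1 array, with limma adjusted p of 0.0273 to 0.322. With the array number as a covariate it did not pass (limma adjusted p = 0.206). Over all probe sets, 35 passed in this comparison. With the array number as a covariate 3 did, and with the neuron and choroid plexus means as covariates 0 did.

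Endfoot and glutamate cycle genes showed no passing member in any comparison. Of 9 endfoot genes, 5 were higher and 4 lower in 3VO against sham at 24 h (median 0.32 on the log2 scale). Aqp9, a water and glycerol channel, had the largest difference, 1.31 (limma adjusted p = 0.414), with means of 540 after sham surgery and 1270 after 3VO. Of 10 glutamate cycle genes, 8 were higher in 3VO against sham at 24 h (median 0.24), and 9 of 10 lay below intact after sham surgery at 24 h (median -0.37). Slc38a1, a glutamine transporter used by neurons, had means of 8939 in intact arteries, 4125 after sham surgery and 6381 after 3VO at 24 h.

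Genes known to rise in reactive astrocytes differed from one another. Timp1, an inhibitor of matrix proteases, rose in 3VO against sham at 24 h by 2.55 on the log2 scale (limma adjusted p = 0.00069), and Lcn2, the iron carrier lipocalin, by 2.63 (limma adjusted p = 0.0141). Mean Timp1 signal was 17436 after sham surgery and 105595 after 3VO. These 2 were the only ones of 13 to pass there, where 0.0508% of all probe sets did, and 6 were higher and 7 lower with a median of -0.00. Over the alternatives, Timp1 kept that call in 31 of 32 and Lcn2 in 25 of 32, each losing it (limma adjusted p = 0.181) when the neuron mean was subtracted. In the 15 fits without 1 array, Lcn2 passed in 10. Cxcl10, a chemokine, lay the other way at -0.98 (unadjusted p = 0.000967, limma adjusted p = 0.264). Against intact, Timp1, Lcn2 and Cp, the copper protein ceruloplasmin, passed after 3VO at 24 h (limma adjusted p = 7.29e-05, 0.00257 and 0.0499), and Timp1 passed after 3VO at 3 d (limma adjusted p = 0.00659). Of all probe sets, 0.184% passed against intact after 3VO at 24 h and 0.222% at 3 d. With the array number, which is highest on the intact arrays, as a covariate, Lcn2 and Cp no longer passed against intact at 24 h (limma adjusted p = 0.197 and 0.638). Timp1 still passed there (limma adjusted p = 0.0171). Timp1 passed in 30 of 31 alternatives at 24 h and in 28 of 31 at 3 d, Lcn2 in 29 and Cp in 7. Timp1, Lcn2 and Cp are also made by vascular and inflammatory cells, and the source of their RNA here was not tested. Vim, the filament partner of Gfap, had means of 135911 in intact arteries, 185692 after sham surgery and 148823 after 3VO at 24 h. All 13 genes lay above intact after sham surgery at each time, with medians of 0.48 and 0.53 and 0 that passed. Of all probe sets, 54.2% lay above intact after sham surgery at 24 h and 58.8% at 3 d.

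Neuronal genes and Fabp7 both had their lowest group mean after sham surgery at 24 h. The list held 34 genes with a probe set, and its mean on an array is given on the log2 scale, centred on the 15 arrays. It was 1.28, 0.92 and -0.06 on the intact arrays, -0.87, -0.01 and -0.82 after sham surgery at 24 h and 0.57, -0.12 and 0.57 after 3VO at 24 h. At 3 d it was -0.55, -0.03 and -0.59 after sham surgery and 0.19, -0.95 and 0.46 after 3VO. Of the 34 genes, 33 lay below intact after sham surgery at 24 h (median -1.17 on the log2 scale) and 32 lay above sham after 3VO at 24 h (median 0.95), and 0 passed. Pvalb, a calcium buffer of inhibitory neurons, had means of 22724 in intact arteries and 1337 after sham surgery at 24 h. Gad1, which makes GABA, had means of 19003, 3218 and 12420 in intact, sham and 3VO arteries at 24 h. The neuron mean spanned 2.23 log2 units over the arrays, while the mean of the 9 astrocyte markers spanned 0.80.

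**Figure D3:**
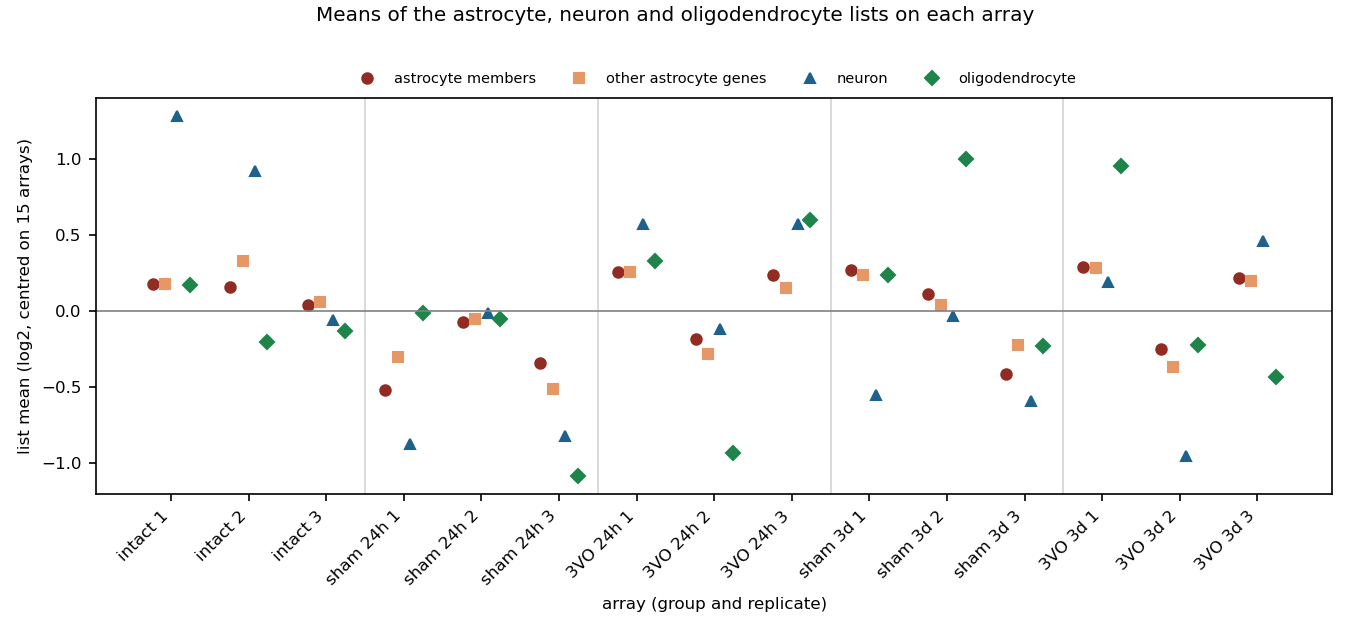
Mean of the 9 astrocyte markers, of 33 other astrocyte genes, of 34 neuronal genes and of 8 oligodendrocyte genes on each of the 15 arrays (log2 units, each list centred on its mean). The neuron mean runs from -0.95 to 1.28, the mean of the 9 markers from -0.52 to 0.29, and on sham 3 d replicate 1 the markers lie at 0.27 while the neuron mean lies at -0.55.

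The brightest probe set of 5 of the 9 markers passed by rank correlation with the neuronal genes over the arrays, and that of the other 4 did not. Correlations were computed for the 18 probe sets over 15 arrays, with 2-sided permutation tests of 100000 resamples and Benjamini-Hochberg adjustment over the 18. Slc1a3 (brightest probe set) had r = 0.85 (permutation, adjusted p = 0.00072) and rho = 0.81 (adjusted p = 0.00504). Fabp7 had r = 0.73 (permutation, adjusted p = 0.0114) and rho = 0.82 (adjusted p = 0.00504). These 2 passed by r, and over all 15737 probe sets 4.75% had an r at or above 0.73. Aqp4, S100b and Slc1a2 had r of 0.64, 0.63 and 0.60 (permutation, adjusted p = 0.0544, 0.0544 and 0.0551), and rho of 0.67, 0.68 and 0.65 (adjusted p = 0.0353, 0.0353 and 0.0372), so they passed by rho only. Over all 15737 probe sets, 6.51% had a rho at or above 0.65 and 8.1% an r at or above 0.60. The other probe sets of these genes did not pass by rho, with permutation adjusted p of 0.0739 and 0.192 for Aqp4, 0.438 for Slc1a2 and 0.306 and 0.747 for Slc1a3. Gfap had r = 0.30 (permutation, adjusted p = 0.551) and rho = 0.41 (adjusted p = 0.286). Gja1, Glul and Sparcl1 had r of -0.23, -0.04 and -0.23, and none passed.

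The slope differed among these 5 markers. For each log2 unit of the neuron mean, Slc1a2 moved by 0.92, Fabp7 by 0.61, Aqp4 by 0.45, S100b by 0.42 and Slc1a3 by 0.25 log2 units. Slc1a3 thus had the tightest but not the steepest relation. These slopes are of the brightest probe sets. The second Slc1a2 probe set had a slope of 0.13, the other Slc1a3 probe sets -0.16 and 0.16, and the other Aqp4 probe sets 0.45 and 0.53. The steep slope of Slc1a2 came from the probe set with the widest spread (SD 1.03 log2 units), whose lowest reading was 116. The arrays farthest from the median of the neuron mean were intact replicates 1 and 2. Without them, r was 0.81 for Slc1a3, 0.80 for Fabp7, 0.60 for Aqp4, 0.57 for S100b and 0.62 for Slc1a2, and Gfap rose from 0.30 to 0.47. Within groups, using each array's deviation from its group mean, r was 0.77, 0.62, 0.66, 0.63 and 0.59 for these 5 genes in the same order. Exact permutation within groups gave p of 0.015 to 0.0292 for them, and 0 of 18 passed after adjustment, with the lowest adjusted p at 0.105.

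**Figure D4:**
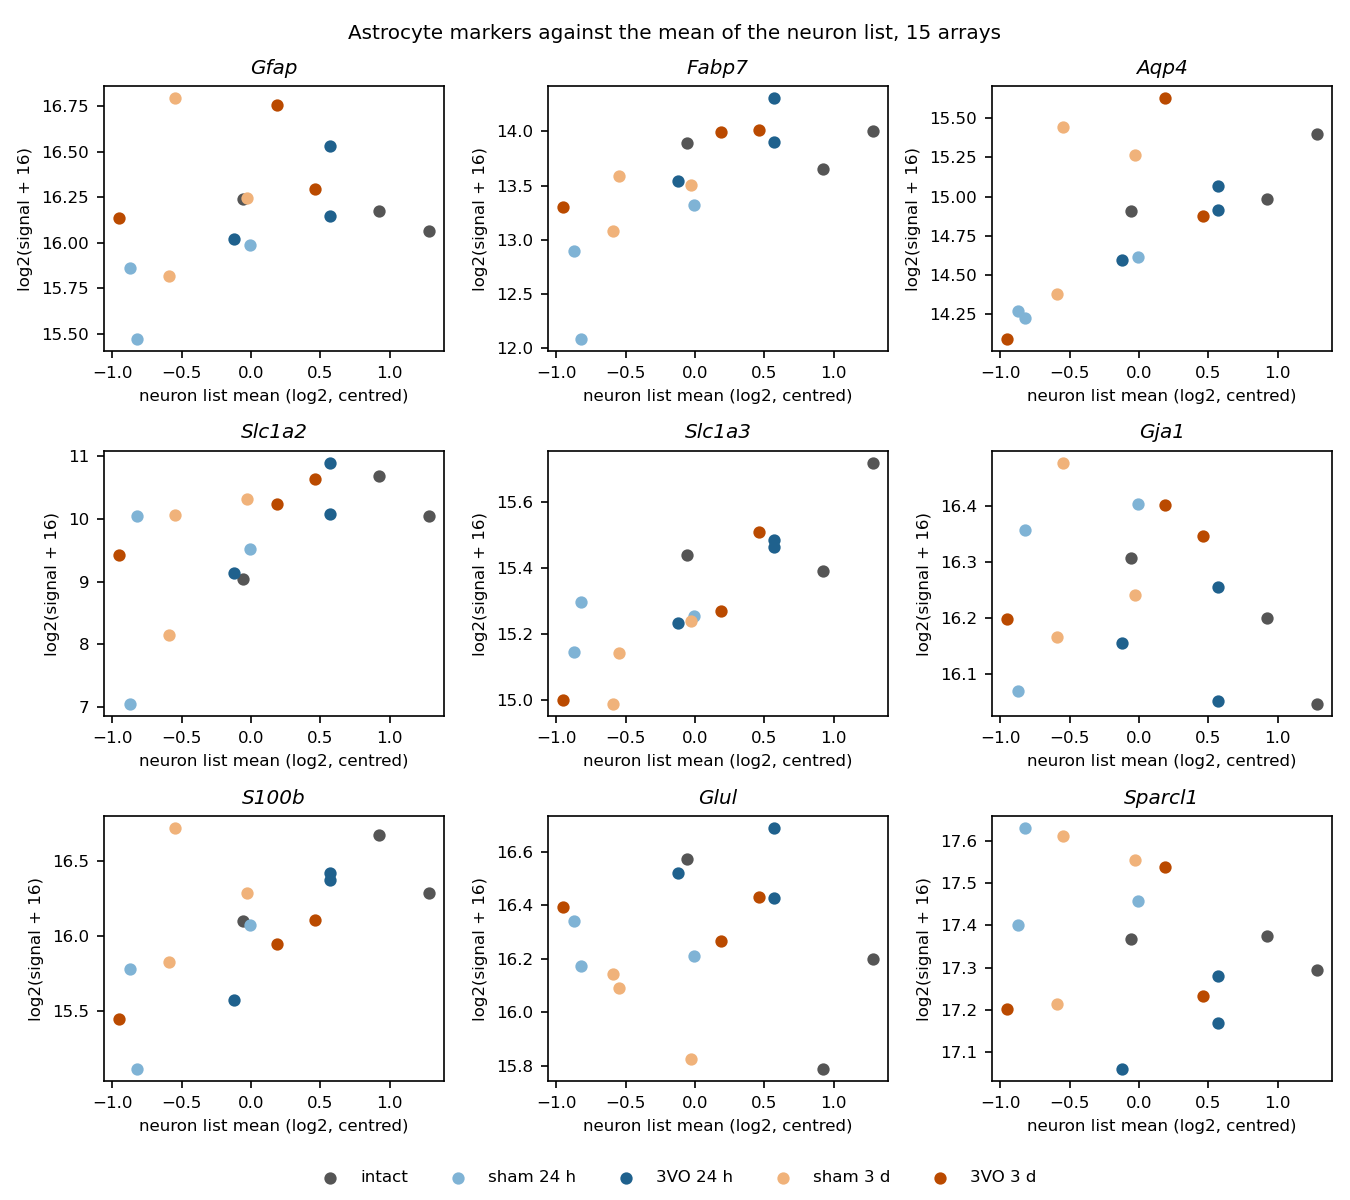
Log2(signal + 16) of the brightest probe set of each of the 9 markers (y axis) against the mean of 34 neuronal genes (x axis, log2 units, centred) on 15 arrays, coloured by group. Slc1a3 and Fabp7 rise with the neuron mean (r = 0.85 and 0.73), Gja1 and Sparcl1 do not (r = -0.23 for each).

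The array labelled sham 3 d replicate 1 stood apart in these relations. Its Gfap and S100b signals were the highest of the 15, and its Aqp4 was the second highest, while its neuron mean of -0.55 lay among the lower values. Without it, r with the neuron mean was 0.49 for Gfap, 0.82 for S100b, 0.78 for Aqp4 and 0.65 for Slc1a2 (permutation, adjusted p = 0.159, 0.00288, 0.00499 and 0.0329). Then 7 of the 18 probe sets passed by r where 2 had. This was the largest count on leaving out 1 array, which gave 2 to 7. The share of all probe sets at such an r without this array is not given here. The log2 difference of Gfap between 3VO and sham at 3 d was 0.36 without this array and that of S100b was -0.22, and still 0 of 18 passed in limma.

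When the neuron mean entered the limma fit as a covariate, several differences at 24 h shrank. That of Fabp7 between 3VO and sham went from 1.16 to 0.74 (limma adjusted p = 0.694), that of S100b from 0.47 to 0.04 and that of Aqp4 from 0.49 to -0.02. Gfap went from 0.46 to 0.32. For sham at 24 h against intact, Fabp7 went from -1.09 to -0.50, S100b from -0.70 to -0.09 and Aqp4 from -0.73 to -0.01. Glul went the other way, from 0.30 to 0.45 in 3VO against sham at 24 h and from 0.34 to 0.39 at 3 d. In 3VO against sham at 3 d, S100b grew from -0.45 to -0.59 and Aqp4 from -0.16 to -0.33. Fabp7 shrank there from 0.38 to 0.25 and Gfap from 0.11 to 0.06. For sham at 3 d against intact, Fabp7 went from -0.46 to 0.04. In that comparison Aqp4 went from -0.07 to 0.55, S100b from -0.08 to 0.45 and Gfap from 0.12 to 0.29. In each of these fits 0 of 18 passed. The part of neuronal tissue in the members' differences was not tested beyond these values.

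Among themselves, Gfap, Fabp7, Aqp4 and S100b gave the pairs that passed by r. Of the 36 pairs of genes, 26 had r above 0, with a median r of 0.28, and 5 passed by r after permutation and adjustment over the 36. These were Gfap with Aqp4 (r = 0.77, rho = 0.76), Gfap with Fabp7 (r = 0.75, rho = 0.71), Aqp4 with S100b (r = 0.72, rho = 0.76), Fabp7 with Aqp4 (r = 0.70, rho = 0.69) and Fabp7 with S100b (r = 0.68, rho = 0.62). Their adjusted permutation p lay between 0.0206 and 0.0376. The calls by rho differed: Fabp7 with S100b did not pass (permutation, adjusted p = 0.0616), while Gfap with S100b (rho = 0.68, adjusted p = 0.0441 against 0.0544 by r) and Fabp7 with Slc1a3 (rho = 0.76, adjusted p = 0.0194, but r = 0.56 and 0.115) did. Slc1a3 had r = 0.13 with Gfap. Glul and Sparcl1 ran against each other (r = -0.58, rho = -0.63, permutation, adjusted p = 0.115). All these values share the 15 arrays and their scaling.

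Genes of other cell types ran with some of the markers. Correlations of the 18 probe sets with the 11 other lists gave 198 tests, adjusted together, of which 10 passed by r and 14 by rho. Within groups, 0 passed with each list. Over all 15737 probe sets, the 95th percentile of r was 0.60 with other astrocyte genes, 0.69 with glutamate cycle genes and 0.60 with macrophage genes. It was 0.44 with oligodendrocyte genes. With contractile smooth muscle genes, the 5th percentile of r over all probe sets was -0.5. With 10 glutamate cycle genes, Slc1a3 (r = 0.76) and S100b (r = 0.73) passed (permutation, adjusted p = 0.0386 and 0.042). With the mean of 33 other astrocyte genes, r was 0.89 for S100b, 0.86 for Aqp4, 0.81 for Fabp7 and 0.74 for Gfap, against -0.12 for Glul and 0.07 for Sparcl1. Those 4 passed (permutation, adjusted p = 0.00198, 0.00891, 0.00924 and 0.0386), with rho of 0.80, 0.81, 0.75 and 0.71 (adjusted p = 0.0376, 0.0376, 0.0376 and 0.0541). With 8 oligodendrocyte genes, r was 0.69 for Aqp4 and 0.67 for Gfap but 0.11 for Slc1a3, and none passed by r (permutation, adjusted p = 0.0785, 0.0989 and 0.866). By rho, 2 probe sets passed, both of Aqp4: 1372190_at, its brightest, and 1387397_at (rho = 0.75, permutation, adjusted p = 0.0376 for each). With 16 genes of contractile smooth muscle, r was -0.69 for Fabp7, -0.64 for Aqp4 and -0.62 for Gfap, of which Fabp7 passed (permutation, adjusted p = 0.0495, 0.111 and 0.111). Over the 18 probe sets, 3 passed by r with this list, among them Aqp4 1368981_at (r = -0.77, permutation, adjusted p = 0.0386). With 15 macrophage and microglia genes, r was 0.68 for Glul (permutation, adjusted p = 0.0903, with rho = 0.75 and adjusted p = 0.0376) and between -0.45 and 0.08 for the other 8 markers. Within groups, r for Glul was 0.43 (exact permutation, unadjusted p = 0.391). The other Glul probe sets had r of 0.73 (1367633_at, permutation, adjusted p = 0.042) and 0.64 (1367632_at, adjusted p = 0.104). Their r within groups was 0.41 and -0.15. The macrophage list mean was 0.25 to 0.74 after 3VO at 24 h and -0.18 to 0.19 after sham surgery, where Glul was likewise higher on all 3VO arrays. At 3 d it was 0.20 to 0.39 after 3VO and -0.37 to -0.19 after sham surgery. The part of these cells in the Glul values was not tested. With the smooth muscle list, every one of its 16 genes was lower in 3VO than in sham at both times, with medians of -0.62 and -0.39 and 0 that passed.

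**Figure D5:**
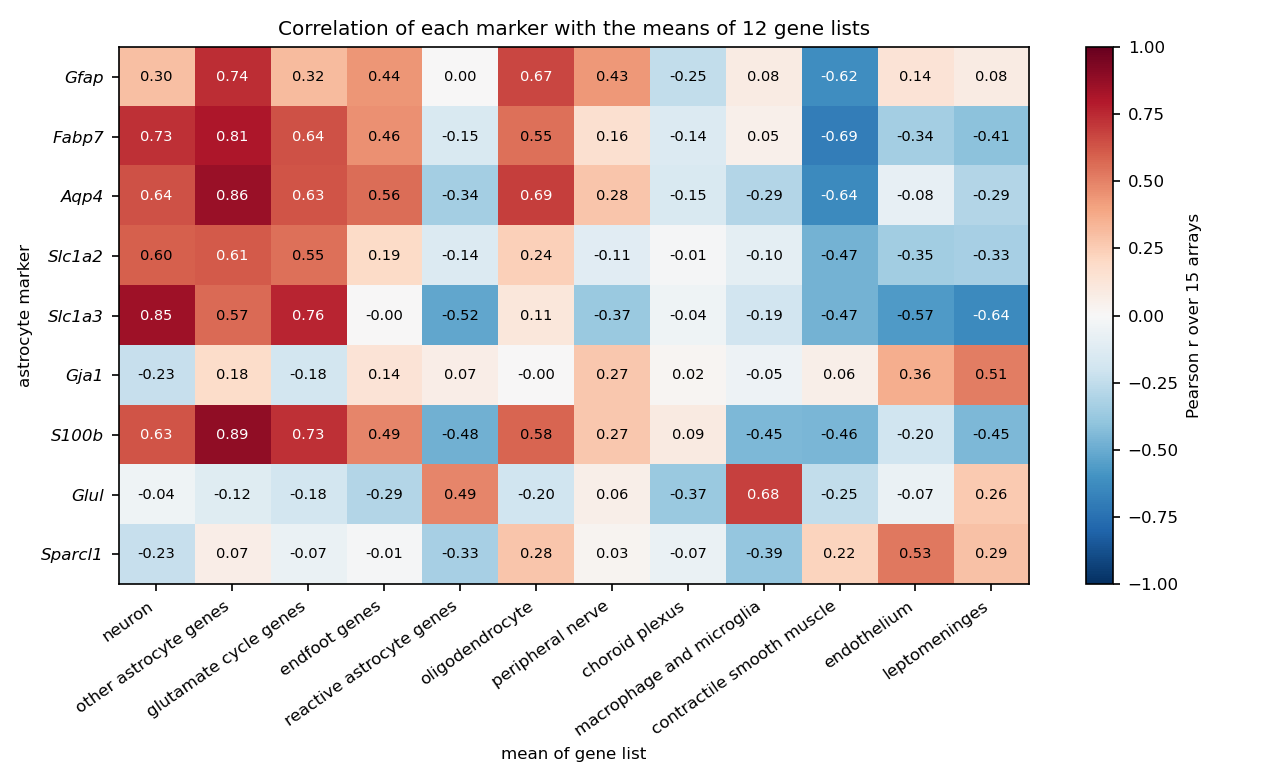
Pearson r over 15 arrays between the brightest probe set of each of the 9 markers (rows) and the means of 12 gene lists (columns), from blue at -1 to red at 1. S100b and Aqp4 are closest to the other astrocyte genes (0.89 and 0.86), Slc1a3 to the neuron list (0.85) and Glul to the macrophage and microglia list (0.68).

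The genes most like the markers were found among 10351 genes by r with the mean of the 9 standardized markers over 15 arrays. The first 3 were Ntsr2 (r = 0.91), Gpr37l1 (0.89) and Mt3 (0.88), all on the list of other astrocyte genes, followed by Tst (0.86). Then came Itih3, Uchl1, Folh1, Psat1, Mmd2 and Mlc1 with r of 0.83 to 0.84. Uchl1 is a gene of the neuron list. Taken by marker, the most like was Slc38a1 for Aqp4 (0.94), Smpdl3a for Glul (0.93), Scg5 for Slc1a3 (0.92), Pfdn2 for Fabp7 (0.89), Gabrb1 for S100b (0.89) and Fabp5 for Gfap (0.81).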

How the data were processed

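Pooled RNA was measured on 15 Affymetrix Rat230A arrays. The deposited files hold a linear signal (intensity), which the authors made with GCOS, per the submitters' processing notes. The design text states a scaling target of 500, whereas the trimmed mean was 5000 on each array. Detection calls and a genome build of the probe sets were not used here, and the number of arrays limits the precision. Symbols were taken from the platform's annotation and updated through RefSeq (12783 probe sets with a single gene). The members and gene lists were chosen with earlier results of these data known. The main probe set of a gene is that with the highest mean signal. From each other list, up to 4 genes with the smallest p at 24 h in 3VO against sham or sham against intact, or that passed, could be named. Acta2, Myh11, Tagln and Mbp were named to check the tissue.

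Values were tested as log2(signal + 16) where 3 arrays or more reached a signal of 100 (15737 probe sets; 57 controls left out). limma 3.58.1 (R 4.3.3) fitted 5 group means to 15 arrays (10 residual degrees of freedom, 4.83 added by eBayes with a variance trend), 2-sided, with Benjamini-Hochberg adjustment. Correlations were computed in Python 3.11.15 and SciPy 1.17.1. Correlations with the lists other than the neuron list were planned as a description, and their tests were added. The code was tested on simulated data. List means used 1 probe set per gene. Alternatives were other pseudocounts, filters, normalizations, covariates and left-out arrays.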

Additional observations from a re-analysis of the deposited data

How the results depend on the processing

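No paired analysis was possible because the replicate numbers follow the order of deposition and pair no arrays across groups. Under 32 settings, 3945 of 3953 recomputed log2 differences stayed on their side of the threshold, 226 of them with a change of sign while neither value was called. The other 8 all arose when the neuron mean was subtracted from every probe set. There 6 probe sets of 3 genes (Slc1a3, Gja1 and Glul) passed in sham at 24 h against intact and 2 in sham at 3 d against intact, where 56.1% and 27% of all probe sets passed and the medians over all were 1.32 and 1.19. By that step Slc1a3 (1388064_a_at) turned from -0.11 to 1.17 (limma adjusted p = 0.0397) in sham at 24 h against intact, a value below the median of all probe sets there. Leaving out each array in turn gave 0 to 0 probe sets in each of the 7 contrasts and in the test over 5 groups.

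Of the 18 probe sets, 2 passed by r with the neuron mean. With a minimum of 1000 and a pseudocount of 160, 5 passed, and with quantile normalization 5 passed. Leaving out 1 array gave 2 to 7, with 5 without intact replicate 2 and 7 without sham 3 d replicate 1; the cause was not tested. The oligodendrocyte covariate and the fits without the arrays highest in Ttr, a choroid plexus gene, were chosen after seeing the data and gave 0 probe sets in every contrast.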
